A study of Mus musculus with 13 samples.

Results

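The regions described here gained 5-hydroxymethylcytosine (5hmC) signal after knee surgery at places that already carried the mark in sham-operated cartilage. In the table of wild-type knees after destabilisation of the medial meniscus (DMM) against wild-type sham knees, 43378 regions were listed. A member is a listed region on chromosomes 1 to 19 with a mean sham level of 10 or more normalized counts and a higher mean after DMM, which shares no base with a listed region of mutant DMM against wild-type DMM. The level and direction criteria left 2176 regions, and 987 of them met the overlap criterion as well. Members were thus chosen by the wild-type DMM and sham means themselves, so the levels below describe the choice and support nothing. A region may be unlisted in mutant DMM against wild-type DMM because no window reached the authors' p-value there. Other criteria of the region caller are not given. Being unlisted does not show that the genotypes had equal levels.

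All mice were male, of the mixed strain B6;129S4, and DNA came from knee cartilage taken 6 weeks after surgery. Wild-type (WT) mice were TET1+/+ and mutant (MUT) mice are labelled TET-/-. In sham knees the joint was opened only. The labels say that the medial meniscus was removed in DMM knees and that each control was the opposite leg, and they differ on age, with 3 to 4 months in one place and 4 to 6 months in another. Each wild-type group had 3 libraries. The 3 MUT DMM entries held 2 distinct libraries, because a pair of them had equal values in 100% of regions. Whether the authors' p-values counted both entries of that pair is not stated. If so, the spread of MUT DMM behind them is understated, also in the listing that the overlap criterion used. MUT sham samples and a background control were not analysed here. Whether each library is a separate animal is not stated, so differences are set against the spread between libraries, which may be technical.

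TET enzymes oxidise 5-methylcytosine to 5hmC, a step on the way to removal of DNA methylation that also leaves a lasting mark in gene bodies and enhancers of active genes. In joints, DMM makes the knee unstable and leads to osteoarthritis-like cartilage damage. The assay reads 5hmC only at CCGG, the site of the enzyme MspI: a glucosyltransferase adds glucose to 5hmC, glucose blocks a repeated MspI cut, and fragments without 5hmC at their ends are destroyed.

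A member can lie directly at a gene's start, and the sequences of 4 such start windows show where the assayed sites fall. They run from 250 bases before to 50 bases after the start, are RefSeq's for build GRCm38.p6, and are printed 5′ to 3′ along the gene with every CCGG in capitals. Fanci (chr7:79392088-79392387, plus strand) encodes a DNA crosslink repair protein, and Coa4 (chr7:100536850-100537149, plus strand) a cytochrome oxidase assembly factor. Polr3f (chr2:144527495-144527794, plus strand) encodes a subunit of RNA polymerase III, and Eloa (chr4:136021600-136021899, minus strand) the transcription elongation factor elongin A. They are examples of coding genes whose window holds CCGG inside the member region, which Gpbp1l1, Tbc1d8 and Cmah do as well.
Fanci: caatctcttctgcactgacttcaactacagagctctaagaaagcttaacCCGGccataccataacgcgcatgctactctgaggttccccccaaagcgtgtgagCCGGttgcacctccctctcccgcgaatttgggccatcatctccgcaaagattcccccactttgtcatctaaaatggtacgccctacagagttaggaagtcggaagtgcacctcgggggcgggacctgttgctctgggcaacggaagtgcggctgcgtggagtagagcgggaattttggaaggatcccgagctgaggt
Coa4: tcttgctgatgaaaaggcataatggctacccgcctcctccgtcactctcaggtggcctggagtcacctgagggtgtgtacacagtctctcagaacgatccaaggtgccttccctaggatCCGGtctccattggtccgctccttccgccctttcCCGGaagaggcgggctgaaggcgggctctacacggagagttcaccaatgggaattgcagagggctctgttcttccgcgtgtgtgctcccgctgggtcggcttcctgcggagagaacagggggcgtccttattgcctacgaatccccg
Polr3f: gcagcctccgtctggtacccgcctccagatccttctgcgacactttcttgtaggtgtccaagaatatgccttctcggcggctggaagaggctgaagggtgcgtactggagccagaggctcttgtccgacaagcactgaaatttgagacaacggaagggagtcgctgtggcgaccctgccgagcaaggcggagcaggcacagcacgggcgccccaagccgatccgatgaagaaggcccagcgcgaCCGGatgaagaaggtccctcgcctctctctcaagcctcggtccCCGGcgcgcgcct
Eloa: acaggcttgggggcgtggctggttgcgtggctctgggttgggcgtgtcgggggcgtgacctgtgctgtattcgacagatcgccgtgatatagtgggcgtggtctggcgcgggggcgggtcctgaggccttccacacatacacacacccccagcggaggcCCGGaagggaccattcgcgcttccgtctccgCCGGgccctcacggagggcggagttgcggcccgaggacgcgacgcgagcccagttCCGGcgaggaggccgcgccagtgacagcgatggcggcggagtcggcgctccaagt
The member region covered 2 CCGG sites in each of these windows, of 2 in Fanci, Coa4 and Polr3f and of 3 in Eloa. In all, 13 members overlapped 16 start windows, of which 12 held at least 1 CCGG and 10 held one inside the member. Of all 32851 start windows in the RefSeq table, 52.8% held CCGG.

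The libraries differed widely in depth, and this bears on every level below. Each library's values were whole multiples of a single step, read as 1 sequenced read. The sham libraries held 563233 to 2187392 reads in the listed regions, the second- and third-listed WT DMM libraries 436852 and 925241, and the first-listed WT DMM library 4726. A read of that library was worth 15.7 normalized counts, above the median sham mean of the members (14.65), so such a level amounts to less than 1 of its reads. The columns carry no replicate numbers, and libraries are named here by their place in the deposited cell.

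In the members the sham libraries lay close together. Their medians were 15.1, 16.5 and 12.5 normalized counts in listed order, and the median coefficient of variation between them was 18.5%. The WT DMM medians were 0, 30.7 and 49.98. The first-listed library was at 0 in 801 of the 987 members, and in 95.8% of all listed regions. The third-listed library lay above all 3 sham libraries in 986 members, the second-listed in 898 and the first-listed in 91. Shares of single libraries over all listed regions were not computed. In 79.6% of all listed regions the second- and third-listed libraries both lay above all sham libraries. The first-listed library had 1 read in 61 members, 2 reads in 102 and 3 or more in 23.

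**Figure D1:**
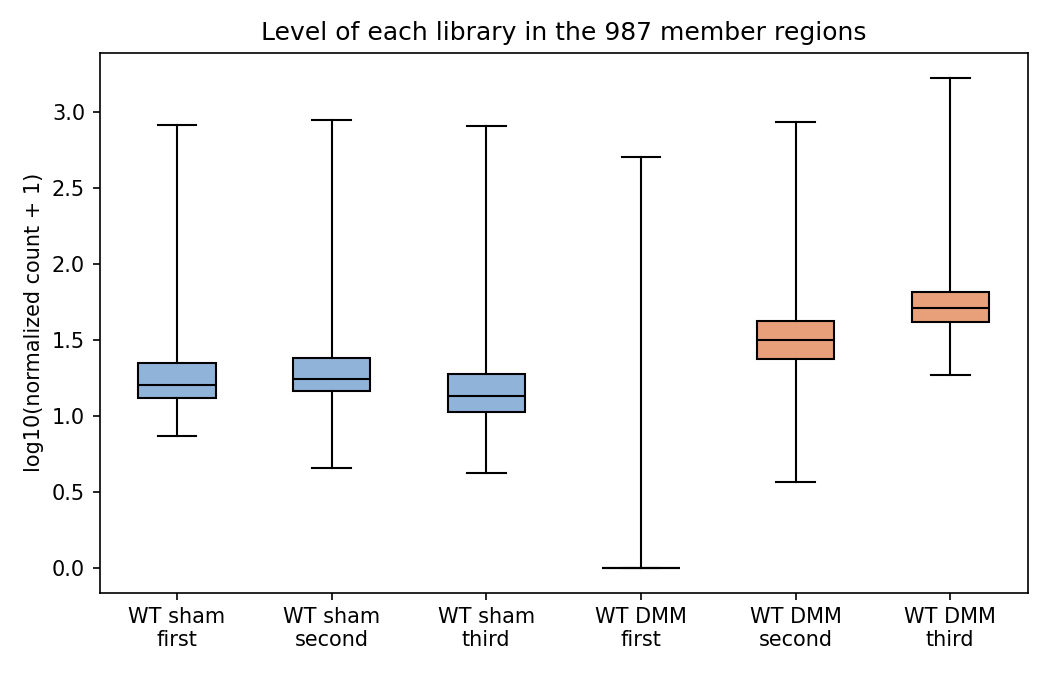
Level of each library over the 987 member regions, as log10 of the normalized count plus 1; boxes span the quartiles with the median as a line, and whiskers reach the lowest and highest region. The second- and third-listed WT DMM boxes (medians 30.7 and 49.98) sit above the sham boxes. The first-listed WT DMM library is at 0 in 81.2% of members and in 95.8% of all listed regions.

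The median ratio of DMM to sham means was 1.79 (range 1.20 to 3.43), and 282 members (28.6%) reached a ratio of 2. Without the first-listed WT DMM library the median ratio was 2.62 (range 1.23 to 5.14), and 878 members (89.0%) reached 2. All 3 WT DMM libraries exceeded all 3 sham libraries in 74 members (7.5%, beside 1.0% of all listed regions). Of the 1189 regions that met the level and direction criteria but not the overlap criterion, 11.9% did so. A read of the first-listed WT DMM library was present in 18.8% of members, 34.1% of those 1189 and 3.76% of all regions on chromosomes 1 to 19. The first-listed library had 1 read in 15 of those 74, 2 reads in 53 and 3 or more in 6. Without it the groups did not overlap in 897 members (90.9%), where 79.6% of all listed regions did the same. They did not overlap in 426 members (43.2%) when the libraries were also rescaled to equal totals over the listed regions. The difference of means was larger than the SD of the WT DMM libraries in 103 members (10.4%), and in 791 (80.1%) without the first-listed library. Shares over all listed regions were not computed for the rescaled count or for these SD counts, so nothing is read from them. Without the third-listed library instead, the DMM mean stayed above sham in 571 of 987 members. After that rescaling the DMM mean was above sham in 534 members, and in 907 without the first-listed library. Without that library, rescaling moved the median log2 difference of all listed regions from 1.57 to 0.85 and that of the members from 1.27 to 0.43.

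Of the 987 members, 980 had an adjusted p under 0.05 in the authors' deposited table, where 93.2% of all listed regions were called higher. Limma, fitted on log2(value + 1) across all 43378 regions, called 0 members higher with all libraries and 0 of all regions higher (0.00%). An unadjusted p under 0.05 with a higher level occurred in 1 member and in 4 of all regions. On that log scale the zeros of the first-listed library put the median member difference at -0.34. Without that library limma called 746 members higher, beside 75.9% of all regions. The member count fell to 41, 232 and 0 without the first-, second- or third-listed sham library, beside 976, 22082 and 0 of all regions. With rescaled libraries it was 0, beside 114 of all regions. Nothing is read from these counts, since the rule chose members on this contrast.

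**Figure D2:**
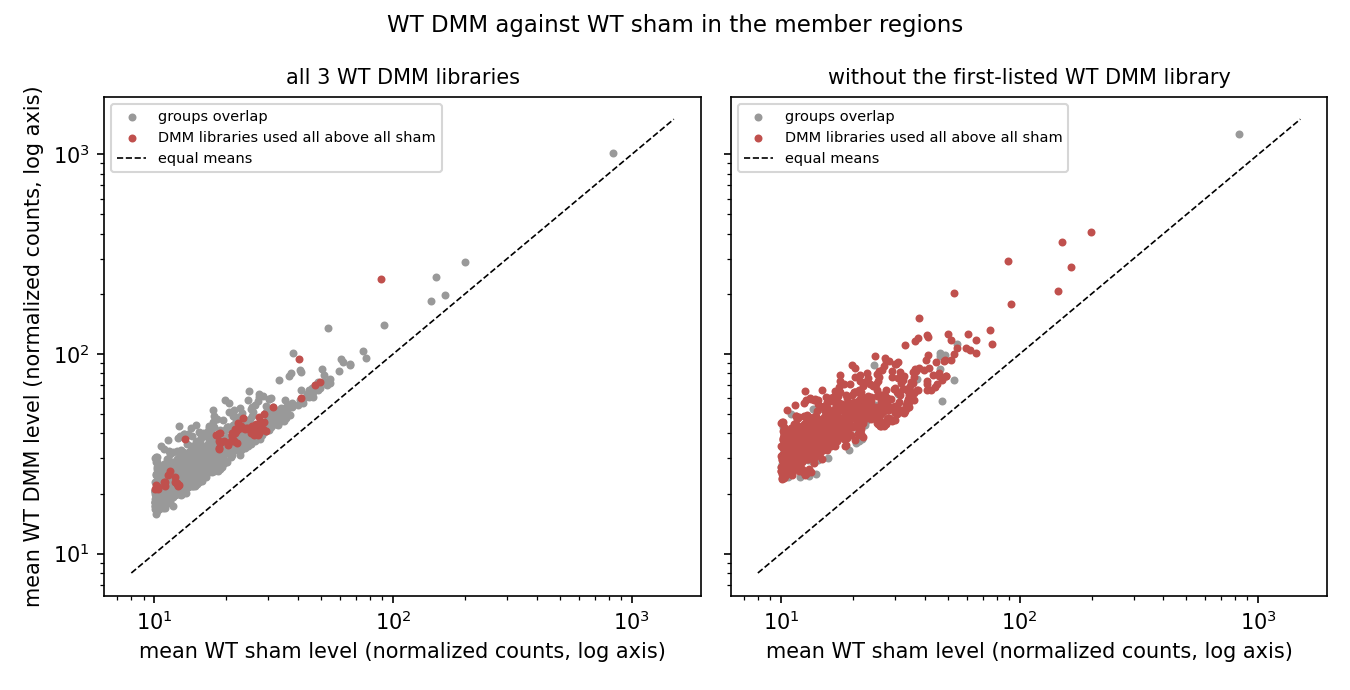
Mean WT DMM level against mean WT sham level of each member (normalized counts, log axes), with all 3 WT DMM libraries on the left and without the first-listed one on the right; red points are members in which every DMM library used exceeds every sham library. There are 74 red points on the left and 897 on the right, and all points lie above the line of equal means because the rule required it.

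Most members had modest sham levels: 731 (74.1%) had a mean under 20, 234 from 20 to under 50 and 22 of 50 or more. Just inside the threshold, a region next to the major urinary protein pseudogene Mup-ps8 had 12.2, 10.01 and 7.86 in sham and 0, 5.34 and 48.9 after DMM. Another in Esyt2, which encodes a lipid transfer protein of membrane contact sites, had 8.65, 12.9 and 8.54 in sham and 0, 20.01 and 34.4 after DMM. The third, in Gm31035, had 12.5, 10.7 and 6.84 against 0, 14.7 and 46.9. Just outside it, regions in Clca3a2 and Hirip3 each had a sham mean of 9.99, with DMM means of 19.96 and 18.8. A region of chromosome 5 from 99999081 to 99999360 followed with 9.98 and 19.1.

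Genes of the cartilage program and of other cell types were examined through 14 lists. Of 28 chondrogenic transcription factor genes 5 held a member (17.9%), where 346 of 20661 protein-coding genes did (1.67%). They were Gli2, Nfib, Foxo3, Erg and Trps1. A higher region at any sham level lay in 17 of the 28, and in 7070 of the 20661. No member lay in the 30 cartilage matrix genes, among them Col2a1 and Acan, although 13 of these held a region that was higher at some sham level and 2 a lower one. The 33 matrix protease and inhibitor genes, the 30 hypertrophy genes, the 43 TGF-beta and BMP genes, the 21 matched genes of the methylation machinery and the 32 blood cell marker genes held no member either. At the share of all coding genes, a list of this size would hold few members or none, so nothing is read from these zeros. The counts were not tested, gene length was not allowed for, and the lists were chosen with earlier results of these data known. Nothing is therefore read from the 5 of 28 either. Members show where the signal passed the authors' threshold and cannot check the tissue label.

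Gli2, a zinc finger factor that carries hedgehog signals, held its member on chromosome 1 from 119050301 to 119050500, centred 3219 bases downstream of the start site. Its sham libraries had 24.4, 25.04 and 17.6 normalized counts and its WT DMM libraries 31.4, 60.03 and 43.7. All DMM values exceeded all sham values, although the lowest rested on 2 reads; the means were 45.04 ± 14.4 (SD, n = 3) and 22.3 ± 4.11 (n = 3). Lef1, the transcription factor that acts with beta-catenin in Wnt signalling, was the only one of 48 Wnt genes with a member, on chromosome 3 from 131112361 to 131112560, centred at -331 from a start site. It had 21.1, 20.7 and 27.0 in sham and 31.4, 58.7 and 40.6 after DMM, and here too the groups did not overlap. The start window of Lef1 in the RefSeq table holds no CCGG and shares 20 bases with the region.

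The other developmental factors had no read in the first-listed WT DMM library. Nfib, a nuclear factor I gene, had 23.7, 17.9 and 17.1 in sham and 0, 53.4 and 51.0 after DMM on chromosome 4 from 82497961 to 82498160, where the gene 2310067E19Rik overlaps it. Erg, an ETS factor of articular cartilage and of endothelium, had 16.0, 16.5 and 8.37 against 0, 50.7 and 37.5 on chromosome 16 from 95464841 to 95465120. In both regions the other DMM libraries stood at more than every sham library, with ratios without the first-listed library of 2.67 and 3.24. Foxo3, a stress-response factor downstream of insulin signalling, had 13.1, 17.2 and 12.1 against 0, 32.0 and 36.4 on chromosome 10 from 42207341 to 42207720. Trps1, a GATA-type repressor of chondrocyte maturation, had 22.7, 17.2 and 16.1 against 0, 32.0 and 59.4 on chromosome 15 from 50683481 to 50683680. For Trps1 the higher mean needed the third-listed library, without which the log2 ratio was -0.22.

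Signalling and matrix-assembly genes each contributed a single member. Il1r1, the interleukin-1 receptor gene, was 1 of 46 inflammatory genes with one, and had 11.9, 15.7 and 14.4 in sham and 15.7, 22.7 and 42.7 after DMM. Its lowest DMM value was 1 read and lay within the sham range. Deptor, an inhibitor within the mTOR complexes, was 1 of 39 insulin, IGF and mTOR genes, with 13.8, 17.2 and 16.1 against 0, 25.4 and 48.9. Fbn1, the fibrillin-1 gene of microfibrils and 1 of 20 fibroblast and synovial lining genes, had 30.1, 26.5 and 23.1 against 0, 45.4 and 70.8. The log2 ratios of Deptor and Fbn1 turned to -0.31 and -0.23 once the third-listed WT DMM library was left out.

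Marker genes of other cell types held members as well. Of 20 endothelial genes 2 did, Erg and Egfl7, a vascular secreted factor. Egfl7 had 31.7, 30.8 and 29.7 in sham and 31.4, 60.03 and 43.7 after DMM. Of 15 adipocyte genes only Ebf2, a factor of adipocyte precursors, held one, with 34.3, 32.9 and 32.6 against 15.7, 78.7 and 55.2. Of 28 skeletal muscle genes only Trdn, the triadin gene of the calcium release complex, held one, with 14.4, 20.7 and 7.86 against 0, 25.4 and 91.6. Trdn turned to a log2 ratio of -0.18 without the third-listed DMM library. The part of other cell types in these levels was not tested. Over the 12 members in list genes the ratio of means ran from 1.46 to 2.72, and from 1.69 to 4.08 without the first-listed library. With rescaled libraries 4 of the 12 had a lower mean after DMM (Foxo3, Trps1, Deptor and Fbn1, with log2 ratios from -0.36 to -0.17), and without the first-listed library only Egfl7 did (-0.03).

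**Figure D3:**
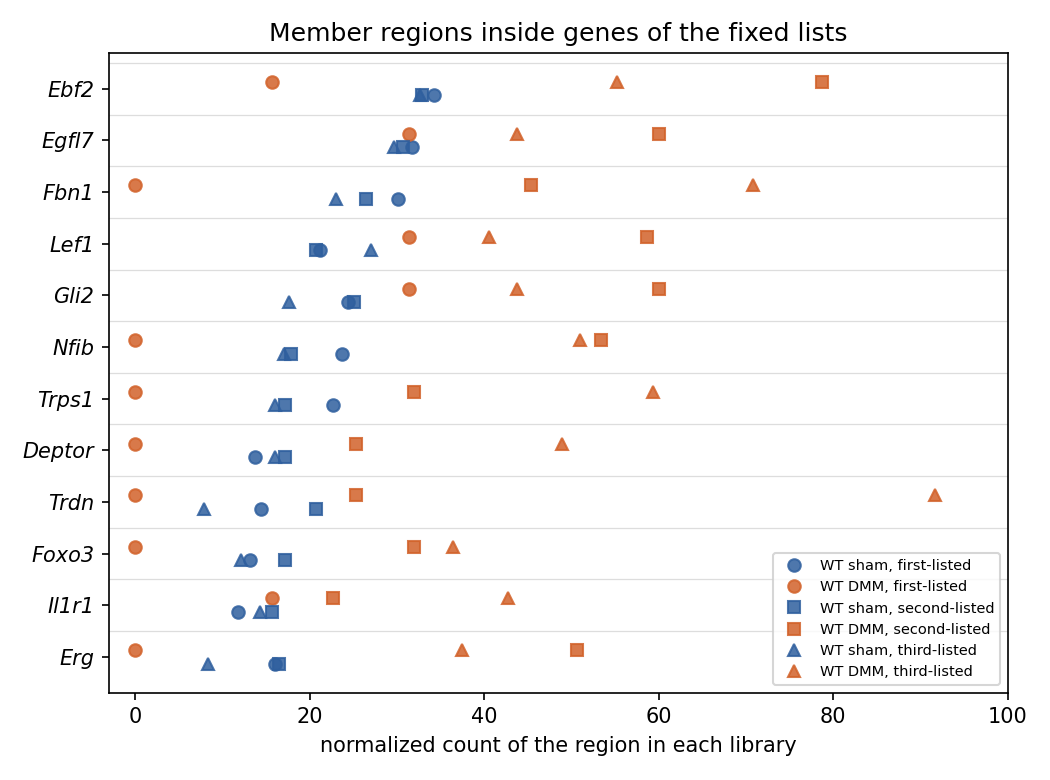
Normalized count of each library (blue, WT sham; orange, WT DMM; circle, square and triangle for the first-, second- and third-listed library) at the 12 member regions inside list genes, ordered by sham mean. The second- and third-listed DMM libraries lie to the right of every sham library in all 12 genes, and the first-listed one does so in Gli2 and Lef1 only.

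At gene starts the same layout of values held. Fanci, whose window is printed above, had 9.61, 12.2 and 8.72 in sham and 0, 36.0 and 21.9 after DMM, and the region also lies in the neighbouring Rlbp1. Coa4 had 11.2, 17.2 and 12.8 against 15.7, 34.7 and 29.2, and Eloa had 9.61, 14.3 and 13.5 against 15.7, 33.4 and 18.7. Polr3f had 24.4, 25.8 and 26.3 against 31.4, 50.7 and 38.5. In Polr3f all DMM values exceeded all sham values; in Eloa they did too, the lowest standing for 1 read. In Coa4 the single read of the first-listed library fell within the sham range. Slc24a3, a sodium, calcium and potassium exchanger gene, had 51.6, 42.9 and 50.9 in sham and 31.4, 113.4 and 72.9 after DMM. Gpx2, a glutathione peroxidase gene, had 13.1, 14.3 and 8.72 against 0, 25.4 and 40.6. The other start windows that members overlapped belonged to Gpbp1l1, Tbc1d8, Cmah, Dzank1 and, among predicted genes and pseudogenes, Gm428, Gm39058, Gm46252 and Lamtor3-ps. Lamtor3-ps was the most strongly marked of these, with 38.8, 45.1 and 39.8 in sham and 0, 80.0 and 117.7 after DMM, and its log2 ratio was -0.04 without the third-listed library. With rescaled libraries the DMM mean was lower at Lamtor3-ps (-0.23), Tbc1d8 (-0.15), Cmah (-0.13) and Gpx2 (-0.04), and at none of the 13 start-window members once the first-listed library was left out as well.

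The 5 members with the smallest adjusted p in the authors' deposited table all held reads of the first-listed WT DMM library. The next value was shared by 150 members, of which 4 held such reads, and the sixth named here was taken from them by position. Zcchc9, a zinc knuckle protein gene, had 32.0, 28.6 and 33.2 in sham and 47.0, 60.03 and 55.2 after DMM on chromosome 13 from 91807181 to 91807420, 396 bases downstream of its start site. Ankfn1 had 28.8, 25.04 and 23.2 against 31.4, 48.0 and 47.9, and Rusf1 had 28.2, 25.04 and 23.4 against 31.4, 48.0 and 52.1. In these 3 genes no DMM value reached down to the sham values. The lowest DMM value stood for 3 reads at Zcchc9 and for 2 at Ankfn1 and at Rusf1. A region of chromosome 3 from 157377621 to 157377900, outside genes, had no overlap between groups either. It had 30.4, 26.5 and 27.2 against 31.4, 54.7 and 49.98, and its lowest DMM value stood for 2 reads. The fifth, in Ccl19-ps2 and Gm52989, overlapped sham, and the sixth, in Gm30974, had no read in the first-listed library. With rescaled libraries and without the first-listed one, the first 4 of these regions had log2 ratios of 0.06 to 0.13 and the fifth had -0.12.

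Among the 74 members with no overlap between groups, the widest gap lay in Slc7a7, an amino acid transporter gene, with 55.4, 52.9 and 12.99 in sham and 94.1, 81.4 and 106.2 after DMM. The region of chromosome 3 from 158736101 to 158736340, before Lrrc7, had 65.4, 110.2 and 92.1 against 125.4, 346.9 and 237.4. Lpin1, a phosphatidate phosphatase gene, had 47.1, 43.6 and 51.1 against 62.7, 77.4 and 70.8. Brap, which encodes a BRCA1-binding ubiquitin ligase, had 8.65, 20.03 and 11.5 against 31.4, 32.0 and 48.9, and the pseudogene Nlk-ps1 had 18.6, 17.2 and 19.99 against 31.4, 36.0 and 33.3. Each of the lowest DMM values at Brap and Nlk-ps1 stood for 2 reads. At Lpin1 the log2 ratio was -0.18 with rescaled libraries and without the first-listed one.

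The members with the highest sham means were mostly outside genes. On chromosome 6 from 79307121 to 79307440 the sham libraries had 812.4, 877.0 and 801.1 normalized counts and the DMM libraries 501.6, 861.8 and 1679.6. The third-listed DMM library exceeded all sham libraries there, the second-listed lay within their range and the first-listed below it. Slc9c1, a sperm sodium and proton exchanger gene, had 158.9, 175.3 and 159.6 against 47.0, 233.5 and 314.5. Dmxl2, a regulator of proton pumps of vesicles, had 149.9, 145.2 and 137.1 against 141.1, 204.1 and 210.3, and here the first-listed library had 9 reads and lay within the sham range. A pair of regions on chromosome 3, from 6299981 and from 6738381, and one of chromosome 5, from 58777741, completed the set. Of these 6 regions, all but Dmxl2 turned lower after DMM without the third-listed library, with log2 ratios from -0.34 to -0.02. With rescaled libraries and without the first-listed one, Dmxl2 was at -0.32, Slc9c1 at -0.16 and the region of chromosome 6 at -0.34. The largest ratios of means among members separated without the first-listed library lay on chromosomes 4, 5, 11, 14 and 15, and the top one, on chromosome 11 from 10667641 to 10667960, had 17.0, 13.6 and 7.35 in sham and 0, 28.0 and 102.0 after DMM.

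Members were spread over 381 bins of 5 Mb, and 165 of these bins held a single one. The 10 bins with most members, picked for that count, held 174 of the 987. The first was on chromosome 7 from 20 to 25 Mb, with 26 members next to vomeronasal receptor pseudogenes and numbered gene models such as Gm4567. Chromosome 14 had 24 members from 5 to 10 Mb, 16 from 25 to 30 Mb, where the Duxbl homeobox copies lie, and 15 in its first 5 Mb. Chromosome 5 had 21 from 90 to 95 Mb around Pramel genes, and chromosome 4 had 18 from 145 to 150 Mb around Zfp978 and Zfp993. These are arrays of near-identical genes, and how reads that match several copies were placed is not stated in the labels, so counts of members there are uncertain.

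Of 478 genes that held a member, 434 held a single one. Snhg14, the long noncoding RNA that hosts snoRNA arrays in the imprinted Prader-Willi region, held 5 on chromosome 7, and 25 of its listed regions were higher and 2 lower at any sham level. The Snhg14 region from 59748301 to 59748680 had 15.4, 17.9 and 20.7 in sham and 0, 53.4 and 59.4 after DMM. That from 59760941 to 59761300 had 13.5, 22.9 and 19.5 against 0, 61.4 and 46.9. Another 2 of the 5, from 59871101 and from 59881221, lie within the array of 17 Snord116 copies, whose counts are uncertain for the same reason. Gm7592 also held 5, 4 of them shared with the overlapping pseudogene Gm2666. Gm26680, Gm27243 and Zfp978, a zinc finger gene, held 4 each, and Gm32110 and Gm32966 held 3 each, as did Gm21154 and Gm38510, which were ranked after them by summed sham level. None of the members in the first 8 genes had a read in the first-listed WT DMM library. Chosen after their values were seen, the coding genes with 2 members outside such arrays included the collagen Col19a1, the cadherins Cdh12 and Cdh18, the kainate receptor Grik3, the sialyltransferase St3gal4, Dab1, Cntnap2 and Samhd1, a nucleotide-degrading enzyme. At Grik3, on chromosome 4 from 125617821 to 125618060, sham had 22.4, 14.3 and 19.1 and DMM had 31.4, 37.4 and 41.7. At its other member, from 125654061 to 125654340, sham had 12.8, 15.7 and 17.4 and DMM had 0, 25.4 and 52.1.

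Members were divided about evenly between gene bodies and the space between genes. Gene bodies held 497 members, which are 50.4% (exact Clopper-Pearson 95% interval 47.2 to 53.5, which covers counting error only), beside 51.0% of all listed regions on these chromosomes. They held 45.7% of the 1189 gains at a sham mean of 10 or more that do overlap a region of MUT DMM against WT DMM, and 50.6% of the 37101 gains of lower sham level. Of the 2625 losses at a sham mean of 10 or more, 60.2% lay in gene bodies. A start site lay within 1 kb of the centre of 3.43% of members, beside 2.81% of all listed regions on these chromosomes. The share was 2.68% of the overlapping gains, 2.24% of the low gains and 10.8% of those losses. The authors' nearest gene was a numbered Gm model for 40.1% of members, 46.2% of the overlapping gains, 29.2% of the low gains and 22.2% of the losses, and a pseudogene for 14.1%, 15.6%, 9.84% and 7.28%. Another region of its own class lay within 50 kb of 24.6% of members. These shares were not tested, because neighbouring regions are not independent. The median member was 280 bases long (200 to 960). The 24 members on chromosome 18 have no start site in the table used.

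**Figure D4:**
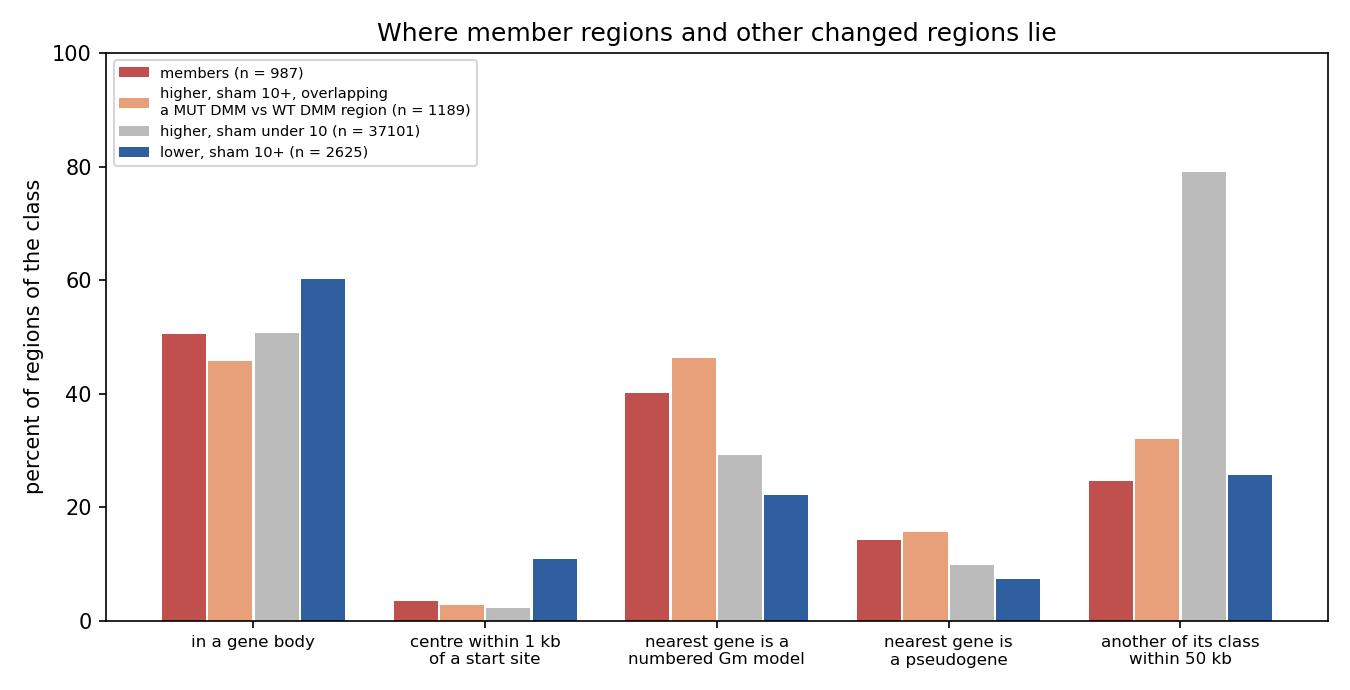
Percent of regions of each class (chromosomes 1 to 19) that lie in a gene body, near a start site, nearest to a numbered Gm model or to a pseudogene, or within 50 kb of another region of the same class. Members (red) stand at 50.4% in gene bodies and 40.1% nearest to a Gm model, where the losses at marked regions (blue) stand at 60.2% and 22.2%.

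The rule used the mutant libraries through the regions listed in MUT DMM against WT DMM, which it took out. Mutant levels at the members could be seen only through the table of MUT DMM against WT sham. It shares its sham libraries with the wild-type table, so values are set side by side and no shared direction is given as a result. Of the 987 members 254 (25.7%) overlapped a region listed there, and 733 did not. The share was 8.03% over all regions of the wild-type table on chromosomes 1 to 19, 23.1% over the gains at a sham mean of 10 or more that overlap a region of MUT DMM against WT DMM, and 37.5% over losses at a sham mean of 10 or more. MUT DMM was higher than sham at 144 of the 254 and lower at 110. The authors' adjusted p was under 0.05 for 142 of the former and 110 of the latter. By the same threshold, 43.2% of all regions listed there were called higher and 56.1% lower. The deeper MUT DMM library fills a pair of entries there. If the authors' p-values counted both entries, the spread of MUT DMM is understated, so nothing is read from these calls. With an overlap of at least 50% of the member, a criterion added after the data were seen, 128 were higher and 79 lower. Of the gains at a sham mean of 10 or more that the rule took out, 275 overlapped a region of that table. MUT DMM was lower at 209 of those 275, and at 1850 of 3365 such regions of any class on chromosomes 1 to 19. The directions at members are therefore not independent of the rule. Both MUT DMM libraries exceeded all sham libraries at 99 members (32.8% of all regions of the table), and both lay below all sham libraries at 106 (49.2%).

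Limma with Benjamini-Hochberg adjustment over all 72486 regions of that table called 22 of the 253 regions at members higher (8.19% of all regions) and 73 lower (39.0%). The calls moved with the libraries. Higher calls were 4, 0 and 4 without the first-, second- or third-listed sham library, beside 2108, 1082 and 1180 of all 72486 regions. Lower calls were 24, 22 and 25, beside 20505, 19548 and 20131 of all regions. Without the deeper MUT DMM library the median log2 difference of the regions at members moved from 0.37 to 0.04. That of all regions moved from -1.04 to -0.55. With rescaled libraries 5 were called higher and 83 lower, beside 4512 and 29667 of all regions. The shallower MUT DMM library was at 0 at 107 of the 110 lower members, beside 42.9% of all regions of the table. That share counts higher and lower regions together, and the share among lower regions alone was not computed. A single read of that library counted for 9.45 normalized counts there. Without the shallower library the median log2 difference was 0.25 for the regions at members and -1.05 for all regions. At 17 of the 110 both MUT DMM libraries were at 0, as they were at 21.1% of all regions of the table, higher and lower counted together.

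Where MUT DMM was higher, the median level at the member was 73.2 normalized counts in MUT DMM and 38.6 in sham. The wild-type table gave medians of 33.7 after DMM and 18.2 in sham for the same members. These tables hold the same sham libraries but differ in scale and region bounds, so levels are not compared between them. A read of the first-listed sham library was worth 0.53 normalized counts here and 0.32 in the wild-type table. At Rusf1, MUT DMM had 98.7 and 94.5 and sham 47.2, 41.7 and 38.0 (limma adjusted p = 0.0160). At Slc24a3 it had 143.6 and 122.8 against 85.4, 69.5 and 82.7 (limma adjusted p = 0.0416), and at the start of Fanci 52.3 and 66.1 against 23.3, 33.6 and 23.6 (limma adjusted p = 0.0438). In these 3 regions both mutant libraries stood above every sham library. At Dmxl2, MUT DMM had 318.1 and 377.9 against 248.2, 235.0 and 222.5 (limma adjusted p = 0.0325). Polr3f showed 163.5 and 113.4 against 85.4, 78.7 and 85.4 and did not pass (limma adjusted p = 0.0598). Ebf2 and Egfl7, with 76.6 and 56.7 against 56.2, 52.1 and 53.0 and with 100.1 and 75.6 against 73.7, 69.5 and 72.4, did not pass either (limma adjusted p = 0.349 and 0.328). The 4 highest ratios, in Gm32966, Tmprss15, Gm35624 and D2hgdh, rested on at most 7 reads of either MUT DMM library. D2hgdh encodes the enzyme that removes D-2-hydroxyglutarate, a compound that inhibits TET enzymes, and had 3.68 and 37.8 in MUT DMM against 5.83, 5.79 and 2.77 in sham (limma adjusted p = 0.276).

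Where MUT DMM was lower, the medians were 2.94 in MUT DMM and 21.8 in sham. For the same members the wild-type table, on its own scale, gave 26.3 after DMM and 13.9 in the same sham libraries. Trdn was the only list gene among them, with 5.15 and 0 in MUT DMM against 23.9, 33.6 and 12.5 in sham (limma adjusted p = 0.0388). Of the members at 0 in both MUT DMM libraries, the 4 with the highest sham mean are named. On chromosome 1 from 113016161 to 113016560, outside genes, both MUT DMM libraries were at 0 and sham had 19.6, 18.5 and 27.5 (limma adjusted p = 0.00209). Next to the amylase gene Amy2a4, at a region that shares 80 bases with its member, both were at 0 against 11.1, 18.5 and 11.4 (limma adjusted p = 0.00257). The regions near Gm8112 and the vomeronasal receptor gene Vmn2r39 also had no read in either MUT DMM library, with sham at 10.6, 16.2 and 7.49 and at 13.8, 17.4 and 2.77. The member near Vmn2r39 turned to a log2 ratio of -1.11 in wild-type DMM without the third-listed library. Gene bodies held 57.6% of the members that were higher in MUT DMM, 45.5% of those that were lower and 49.7% of those not listed, and the nearest gene was a numbered Gm model for 35.4% of the first set and 57.3% of the second. The differences between these shares were not tested.

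**Figure D5:**
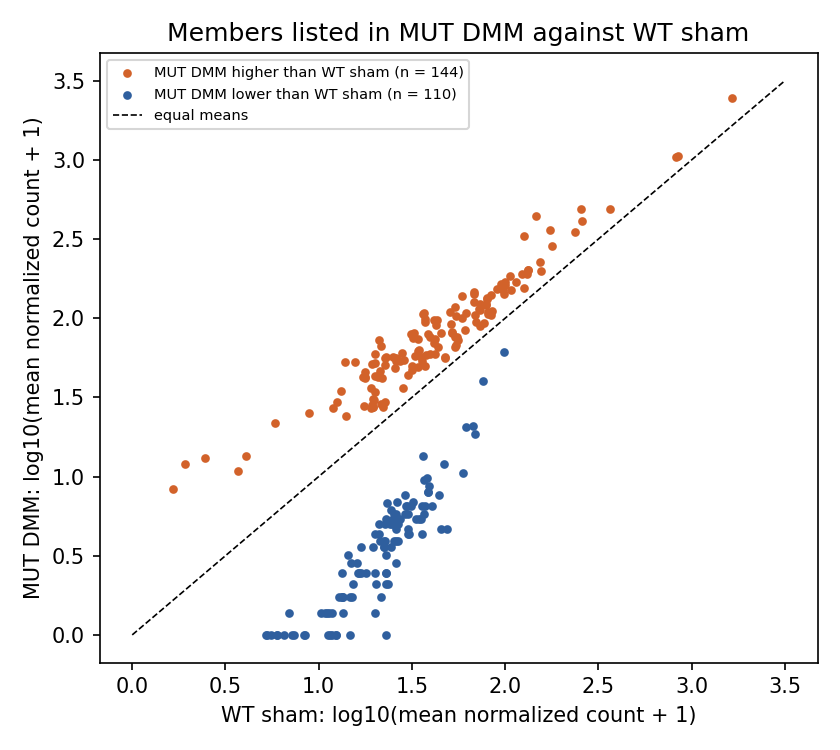
Mean MUT DMM level against mean WT sham level, both as log10 of the normalized count plus 1 on the scale of that table, for the 254 members that overlap a region of MUT DMM against WT sham. The 144 higher members (orange) lie above the line of equal means, and the 110 lower ones (blue) include 17 at 0 in both mutant libraries.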

How the data were processed

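The assay was reduced representation hydroxymethylation profiling of knee cartilage DNA with 15 PCR cycles, per the labels' protocols. The submitters' processing notes name HISAT2 2.1.0, bcl2fastq 2.20.0, bedtools, SAMtools, Trim Galore 0.5.0 and build mm10. Region caller and scaling factors: not given in the sources used here. Deposited by the authors were 3 tables of regions built from 200-base windows; the largest window p-value was 0.0001. Per the file headers they hold normalized counts per library written together in one cell, a mean signal per group, and p-values with adjusted p-values by the authors.

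Reads were recovered with a tolerance of 0.02 normalized counts. Positions came from RefSeq gene bounds (GRCm38.p6, the coordinates of mm10), which do not tell exons from introns; 431 of 432 list genes matched. Limma 3.58.1 in R 4.3.3 was fitted on log2(value + 1) with Benjamini-Hochberg adjustment and was tested on simulated data. The simulated libraries all had the depth of sham libraries, so that test does not cover a library as shallow as the first-listed WT DMM one. Named regions were, among members, the 6 of smallest adjusted p, highest sham mean, largest ratio or widest gap, those at the threshold, in list genes or at start windows, the 8 genes with most members, and the 4 highest and lowest mutant ratios. The members and lists were chosen with earlier results of these data known. Left-out libraries, thresholds, overlaps, pseudocounts, filters and rescaling were varied. PCR reads carry no molecular identifiers, so intervals cover counting error only.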

Additional observations from a re-analysis of the deposited data

How the results depend on the processing

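The number of members was 256 with a sham mean of at least 20 and 3242 with at least 5, and the overlap criterion, a margin of 1 kb and an adjusted p under 0.01 left it within 1.5 times of 987. Leaving out single libraries left 571 to 987 members higher, the lowest without the third-listed WT DMM library. Members called higher by limma ranged from 0 to 746 when single libraries were left out, the highest without the first-listed WT DMM library, and without that library from 0 to 956. Rescaling all libraries to equal totals over the listed regions removes any net difference between groups in regions chosen for one. Without the first-listed library it left 0 members called higher by limma, beside 114 of all regions. With all libraries it left 12 members with no overlap between groups. The share of all regions was not computed for that rescaled count. Without rescaling, single left-out libraries put the count of such members at 75 to 897. In MUT DMM against WT sham, higher calls were 1 with a minimum mean level of 5 and 5 after rescaling, and lower calls 12 with that minimum; left-out libraries gave 0 to 79 higher and 22 to 110 lower. Extending gene bodies by 5 kb raised the share of members in them to 62.1%. Of 58 named regions, 17 reversed, in each case without the third-listed WT DMM library. With rescaled libraries, 14 of the 58 had a lower mean after DMM, and 6 without the first-listed library as well. Their log2 ratios, named by gene or by the authors' nearest gene, ranged over left-out libraries as follows: Gm30974 -0.37 to 1.34, Gm23727 -0.28 to 0.61, Gm23147 -0.31 to 1.04, Slc9c1 -0.23 to 0.74, 1700008P02Rik -0.34 to 1.27, Gm6632 -0.02 to 0.95, Mup-ps8 -1.91 to 1.44, Esyt2 -0.00 to 1.44, Gm31035 -0.45 to 1.62, Trps1 -0.22 to 1.29, Deptor -0.31 to 1.25, Trdn -0.18 to 2.03, Fbn1 -0.23 to 1.13, Gm32966 -0.57 to 1.53, Tmprss15 -0.07 to 1.82, Vmn2r39 -1.11 to 1.18, Gm26630 and Lamtor3-ps -0.04 to 1.26. Fits that left a lone library in a group assume that it varies like the others, and only their effect sizes are given. No paired analysis was possible because the columns carry no replicate numbers.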
